A study of Mus musculus with 4 samples.

Results

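The Runx and Nfi transcription factor genes of the mouse were followed in an ATAC-seq comparison of WT and Tet2 KO primary myoblasts. The 8 genes are Runx1, Runx2, Runx3 and Cbfb, and Nfia, Nfib, Nfic and Nfix. They were chosen by name, with earlier results of these data known, from 22208 protein-coding genes of the mm9 annotation (GENCODE M1, chromosomes 1 to 19 and X). A locus was taken as the gene with 50 kb on either side, and a peak belonged to it when at least 1 bp lay inside. The 8 loci spanned 2.43 Mb and held 70 of the 25775 WT peaks and 8 of the 3836 Tet2 KO peaks.

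ATAC-seq marks open chromatin with a transposase that cuts accessible DNA, and a peak is a stretch with more sequenced fragments than its surroundings. The samples were 2 WT and 2 Tet2 KO myoblast cultures, all of the C57BL/6 strain, grown for at least 3 days in a T cell medium on collagen from satellite cells (the stem cells of muscle) sorted out of hindlimb muscle, with 5000 cells per library. Tet2, an enzyme that oxidises 5-methylcytosine as a step of DNA demethylation, was deleted in the whole body of the KO mice, so that non-muscle tissues of the donor mice lacked it too. The files analysed hold 1 peak list per genotype, each from a single library that the labels tie to no replicate, so no difference between genotypes could be tested and the intervals below cover counting error only.

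Runx proteins bind DNA through the Runt domain, together with Cbfb, a partner that does not touch DNA itself and raises their affinity for it. Runx1 is best known from blood stem cells, Runx2 from bone and Runx3 from T cells and sensory neurons, and Runx1 is also induced in denervated and damaged muscle. The Nfi proteins bind the palindrome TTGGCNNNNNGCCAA or a single arm of it, as dimers, and Nfix drives the change from the embryonic to the fetal muscle programme and takes part in muscle regeneration.

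The regions that carried the comparison were the distal sites of these loci listed in both genotypes, so their sequences are shown first, in mm9 coordinates, plus strand, 5′ to 3′. Capitals mark matches to motifs searched on both strands: RUNX (TGTGGT or TGCGGT), a single NFI arm (TTGGCA), AP-1 (TGACTCA), the E boxes CAGCTG and CAGGTG, to which MyoD-type factors bind, and TEAD (GGAATG).
Runx1 intergenic, past the gene end, chr16:92573692-92573985: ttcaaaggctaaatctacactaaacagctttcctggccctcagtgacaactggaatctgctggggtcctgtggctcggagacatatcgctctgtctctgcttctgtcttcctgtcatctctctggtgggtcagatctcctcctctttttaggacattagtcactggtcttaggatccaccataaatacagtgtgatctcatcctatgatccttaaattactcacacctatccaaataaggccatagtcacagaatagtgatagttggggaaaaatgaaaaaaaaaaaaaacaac
Runx1 intron, first site, chr16:92610014-92610299: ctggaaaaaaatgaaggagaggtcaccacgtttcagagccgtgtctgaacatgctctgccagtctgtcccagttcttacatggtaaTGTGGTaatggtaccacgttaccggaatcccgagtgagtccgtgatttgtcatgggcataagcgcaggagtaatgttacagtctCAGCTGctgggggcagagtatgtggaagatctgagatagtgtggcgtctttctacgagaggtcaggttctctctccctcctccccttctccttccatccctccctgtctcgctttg
Runx1 intron, second site, chr16:92621041-92621318: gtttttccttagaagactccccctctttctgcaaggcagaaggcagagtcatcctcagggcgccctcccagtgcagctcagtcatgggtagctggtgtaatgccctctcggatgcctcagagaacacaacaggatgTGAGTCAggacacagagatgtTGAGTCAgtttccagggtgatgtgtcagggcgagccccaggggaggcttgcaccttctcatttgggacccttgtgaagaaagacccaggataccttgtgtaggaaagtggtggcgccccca
Runx2 intron, near the gene end, chr17:44645174-44645473: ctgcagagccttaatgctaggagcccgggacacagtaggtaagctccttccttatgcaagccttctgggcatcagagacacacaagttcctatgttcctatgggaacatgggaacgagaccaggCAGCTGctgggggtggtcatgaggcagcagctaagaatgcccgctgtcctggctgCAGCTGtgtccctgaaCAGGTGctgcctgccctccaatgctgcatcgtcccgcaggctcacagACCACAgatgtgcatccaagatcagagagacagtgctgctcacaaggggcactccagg
Runx2 intron, middle of the gene, chr17:44791430-44791728: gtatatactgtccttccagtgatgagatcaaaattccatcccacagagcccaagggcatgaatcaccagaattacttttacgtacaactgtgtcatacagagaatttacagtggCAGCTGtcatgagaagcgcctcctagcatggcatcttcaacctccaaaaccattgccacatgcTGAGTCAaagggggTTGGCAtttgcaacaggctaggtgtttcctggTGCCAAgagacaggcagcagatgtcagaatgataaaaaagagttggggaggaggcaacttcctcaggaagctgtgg
Nfia intron, chr4:97461682-97461838: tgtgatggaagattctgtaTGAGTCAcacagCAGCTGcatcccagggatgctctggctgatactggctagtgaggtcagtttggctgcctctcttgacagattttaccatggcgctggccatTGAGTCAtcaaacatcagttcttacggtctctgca

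The motifs differed from site to site. The first Runx1 intron site held a RUNX match and a CAGCTG, and the second held a pair of AP-1 matches. The Runx2 site near the gene end held 2 CAGCTG matches, 1 CAGGTG match and 1 RUNX match, and the site in the middle of Runx2 held 2 single NFI arms, an AP-1 match and a CAGCTG. The Nfia site held 2 AP-1 matches and a CAGCTG within 157 bp, and the WT peak of the intergenic Runx1 site held none of the motifs searched, while the Tet2 KO peak there (92573628 to 92573944) held a CAGCTG. A match of letters is a description and does not show that a factor was bound.

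The 4 WT peaks at the members' own transcription starts had no listed Tet2 KO peak, like 46 of the 52 distal WT peaks at the loci. All 4 had folds under 10, a class in which 6.39% of all WT peaks had a Tet2 KO peak. The start sequences printed here, with exon bases left out, show how rich in CpG these stretches were. Beside them stands the strongest distal peak of the Cbfb locus, an intron site without a CpG (the CpG counts and folds given later are those of the whole peaks).
Runx1 proximal start, chr16:92697574-92697705: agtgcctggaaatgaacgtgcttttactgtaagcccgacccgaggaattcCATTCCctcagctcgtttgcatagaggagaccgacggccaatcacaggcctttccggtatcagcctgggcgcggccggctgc
Cbfb start, chr8:107694306-107694573: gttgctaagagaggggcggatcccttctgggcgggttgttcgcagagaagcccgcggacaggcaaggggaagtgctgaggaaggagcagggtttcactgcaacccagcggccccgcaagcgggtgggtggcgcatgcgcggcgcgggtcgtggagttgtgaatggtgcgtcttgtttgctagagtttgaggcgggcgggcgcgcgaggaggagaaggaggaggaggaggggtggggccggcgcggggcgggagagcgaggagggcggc
Nfia upstream start, chr4:97438878-97439113: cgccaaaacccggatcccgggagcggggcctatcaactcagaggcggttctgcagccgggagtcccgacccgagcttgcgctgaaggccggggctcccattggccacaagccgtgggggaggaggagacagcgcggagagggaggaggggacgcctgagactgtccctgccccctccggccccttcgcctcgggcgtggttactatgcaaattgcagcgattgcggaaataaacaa
Cbfb intron, chr8:107710522-107710821: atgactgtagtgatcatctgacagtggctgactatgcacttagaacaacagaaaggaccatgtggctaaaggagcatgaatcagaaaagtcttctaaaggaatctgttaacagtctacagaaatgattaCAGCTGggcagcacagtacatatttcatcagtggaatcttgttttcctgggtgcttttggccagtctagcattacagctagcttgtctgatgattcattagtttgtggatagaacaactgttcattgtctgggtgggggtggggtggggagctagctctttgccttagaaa

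All 8 Tet2 KO peaks at the loci overlapped a WT peak, and 62 WT peaks had no listed Tet2 KO counterpart. The ratio of WT to Tet2 KO peaks was 8.75 at the loci, beside 6.72 over the whole lists. The lists follow different limits, with a smallest −log10 q of the peak caller of 2.18 in WT and 0.863 in Tet2 KO, the looser limit. With both limited to a −log10 q of 10 or more, the ratios were 35.0 and 27.7. Of the 70 WT peaks, 8 were overlapped by a Tet2 KO peak (11.4%, Wilson 95% interval 5.91 to 21.0%), and 14.1% of all WT peaks, so the loci did not stand apart from the list within counting error. The Runx and Cbfb loci had 36 WT and 5 Tet2 KO peaks, with 13.9% of the WT peaks shared (interval 6.08 to 28.7%). The Nfi loci had 34 WT and 3 Tet2 KO peaks, with 8.82% shared (interval 3.05 to 23.0%). The intervals of the families overlapped.

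Tet2 KO peaks lay at 5 of the 8 loci, where 31.4% of all protein-coding genes had one within 50 kb. These loci were Runx1 with 3, Runx2 with 2, and Nfia, Nfic and Nfix with 1 each. The 8 genes were longer than most and their windows held more WT peaks, with medians of 163 kb of gene and 9 WT peaks beside 15.5 kb and 2 over all genes, and the part of window size in the count of loci was not tested. No Tet2 KO peak was listed at Runx3, Cbfb or Nfib.

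**Figure D1:**
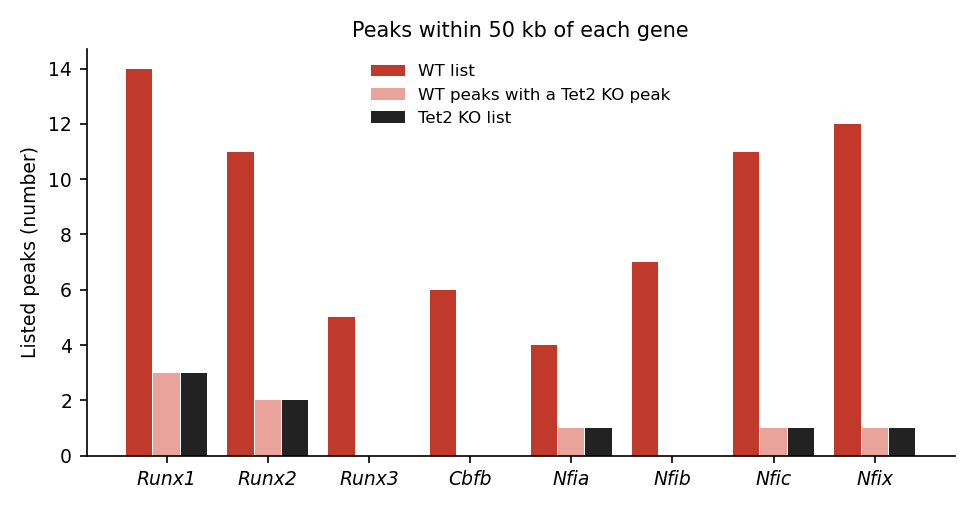
Number of listed peaks within 50 kb of each gene: WT list (red), WT peaks overlapped by a Tet2 KO peak (pink) and Tet2 KO list (black). WT counts ran from 4 at Nfia to 14 at Runx1 and Tet2 KO counts from 0 to 3, and each locus had fewer Tet2 KO than WT peaks.

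The background of each library has to be read beside these counts. The lowest background solved for the listed peaks of these loci was 0.649 fragments in WT and 1.38 in the Tet2 KO library. These minima were taken over 70 WT and 8 Tet2 KO peaks. Total reads are unknown, so depth and noise cannot be told apart in this value. Both lists skip numbers of the peak caller, which numbers its peaks along the genome, so called peaks exist that are not listed. Between the listed peaks that enclose the 8 windows, 35 WT and 38 Tet2 KO numbers were skipped, so absence from a list is not absence of a called peak. Of 8 myoblast marker genes 7 had a WT peak between 10 kb upstream and the gene end and 5 a Tet2 KO peak (as did 13.5% of all protein-coding genes), with Myf5 at 0 in both lists. Of 8 markers of other cells (blood, endothelium, connective tissue) 4 had a WT peak (Ptprc, Itgam, Pecam1 and Cdh5) and 0 a Tet2 KO peak, and Ly6a, Pdgfra, Dcn and Lum were at 0. Within 50 kb, 7 of the 8 myoblast markers and 2 of the 8 others (Itgam and Pecam1) had a Tet2 KO peak. At most 27.4% of all protein-coding genes had no WT peak within 50 kb. The exact share of all genes with a WT peak was not counted in either span. The Tet2 gene itself had 3 WT and 0 Tet2 KO peaks between 10 kb upstream and the gene end, a count that does not report on the deleted exon. The part of these differences between the libraries in the counts at the loci was not tested.

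**Figure D2:**
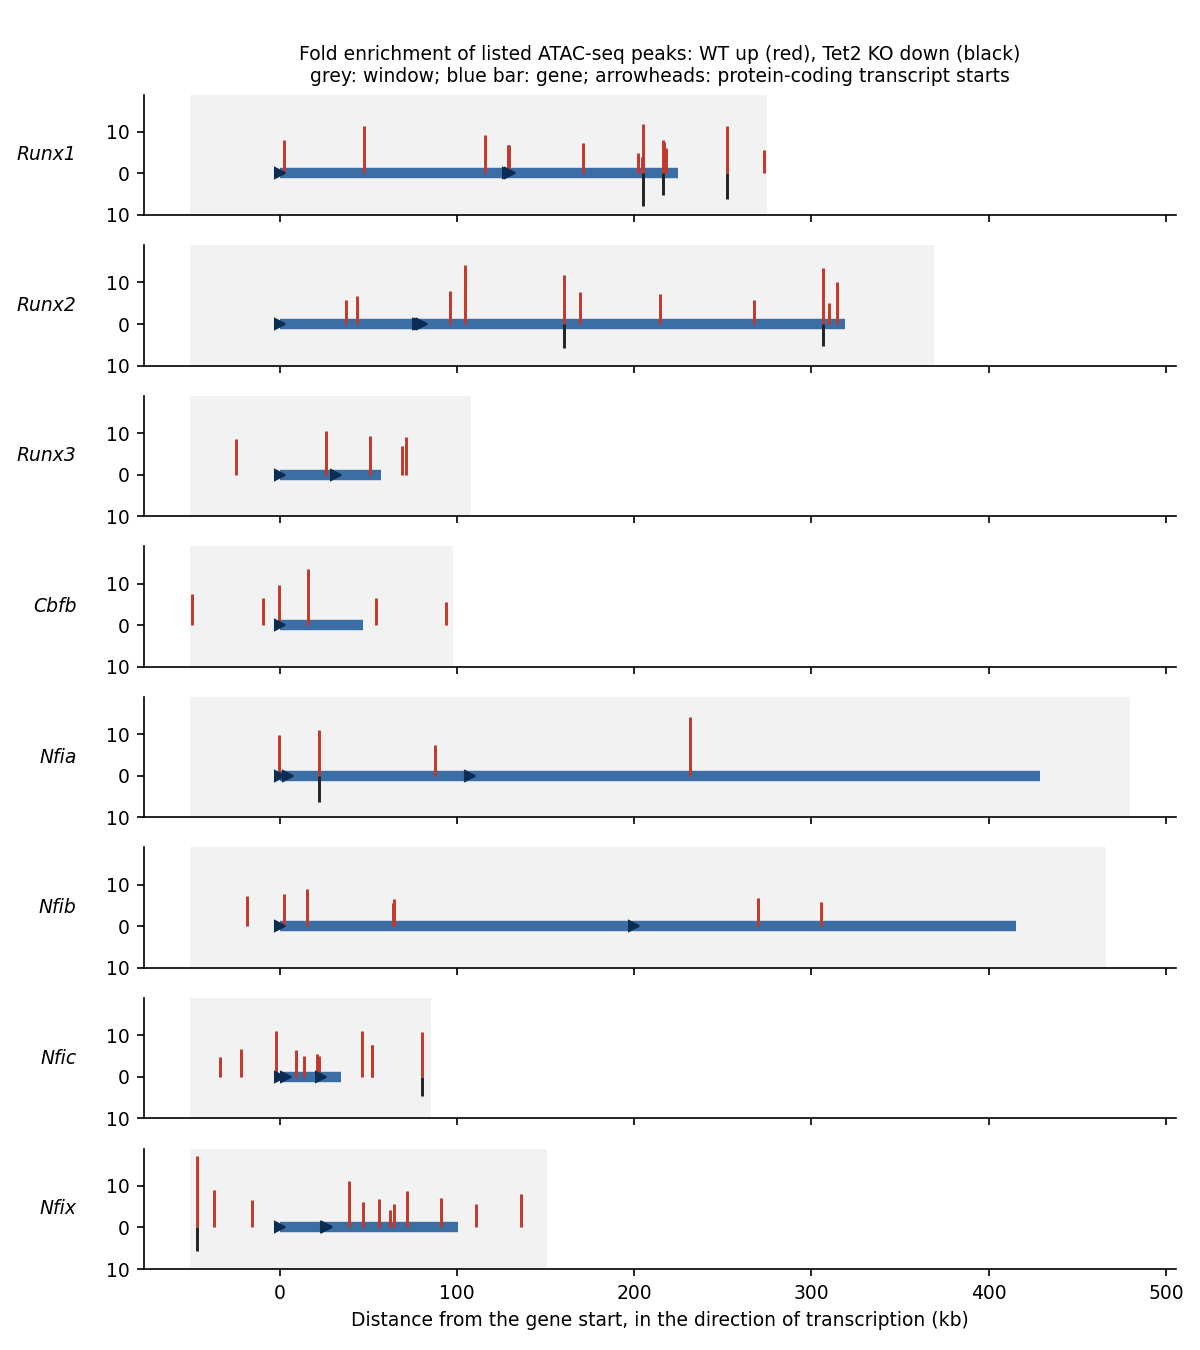
Map of the 8 loci by distance from the gene start in kb, in the direction of transcription, with the fold enrichment of WT peaks drawn upward in red and of Tet2 KO peaks downward in black, the window in grey, the gene in blue and coding starts as arrowheads. Of the 70 WT peaks 46 lay inside the gene, 12 upstream and 12 downstream, and every black line stands opposite a red one.

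Runx1 (chr16:92601712-92826311, minus strand), the regulator of blood stem cell formation, had the most WT peaks of the 8 loci, 14, and 39 protein-coding genes had more. Of these peaks 12 lay inside the gene and 2 past its end. A run of 6 WT peaks stood within 16.1 kb of intron toward the end of the gene (92608478 to 92624540), with fold enrichments between 4.06 and 11.8, and 2 of the 6 had a Tet2 KO peak. The fold enrichment compares the fragments at the summit with those around it in the same library.

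The 3 shared Runx1 sites are the first printed above. The second intron site (92621041 to 92621318) had a WT fold of 11.8 with 48 fragments at the summit (exact Poisson interval 35.4 to 63.6) and a Tet2 KO fold of 7.83 with 26 fragments (17.0 to 38.1), the highest Tet2 KO fold at any of the 8 loci. The first intron site had a WT fold of 7.94 with 39 fragments (27.7 to 53.3) and a Tet2 KO fold of 5.31 with 19 fragments (11.4 to 29.7), and the summits lay 5 bp apart. The intergenic site, whose nearest gene start was that of Clic6, had a fold of 11.5 with 24 fragments in WT and 6.20 with 15 fragments in Tet2 KO. Each of these sites was lower in the Tet2 KO list, while the fragment intervals of both genotypes overlapped at all 3.

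Runx1 is transcribed from a distal and a proximal promoter, and the peaks fell at the proximal one. WT peaks stood at both proximal starts, 129 kb into the gene, with a fold of 6.83, 21 fragments and 18 CpG at 92697509 to 92697705, and a fold of 6.77, 21 fragments and 14 CpG at 92696886 to 92697145. At the distal start (92826311) the nearest WT peak was 2.13 kb inside the gene (92823918 to 92824129, fold 8.0). No WT number was skipped in the 54.3 kb between the listed peaks that flank the distal start, so no unlisted called WT peak lay there. The Tet2 KO list had no peak at either promoter, and its nearest was 76.3 kb from the proximal start, with 8 numbers skipped over the 386 kb between the listed peaks on either side. The strongest WT peak inside the gene without a Tet2 KO peak had a fold of 11.4 (92778401 to 92778705).

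Runx2 (chr17:44632936-44951746, minus strand), the master regulator of bone formation, had 11 WT and 2 Tet2 KO peaks, all of them inside the gene. The WT peaks had folds between 4.97 and 14.2. The shared site near the gene end had a WT fold of 13.5 with 37 fragments (interval 26.1 to 51) and a Tet2 KO fold of 5.32 with 16 fragments (9.15 to 26), so the fragment intervals did not overlap. The shared site in the middle of the gene had a WT fold of 11.7 with 29 fragments (19.4 to 41.6) and a Tet2 KO fold of 5.73 with 13 fragments (6.92 to 22.2), and the intervals overlapped.

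The strongest WT peak of Runx2 had no Tet2 KO peak. It lay at 44846739 to 44847081 with a fold of 14.2 and 32 fragments, at the start of the noncoding transcript 9530072K05Rik. A second peak lay at the start of Supt3h, a neighbour whose gene overlaps Runx2 (44914077 to 44914195, fold 5.71, 13 CpG). None of the 4 groups of Runx2 coding starts had a listed WT peak, with the nearest 15.9 to 37.0 kb away. A single WT number was skipped in the 52.2 kb that hold the 3 proximal groups, so at most 1 unlisted called peak lay among them.

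Runx3 (chr4:134676567-134733905, plus strand), which acts in T cells and sensory neurons, had 5 WT peaks and 0 Tet2 KO peaks. The share of 0 of 5 allows up to 60% where a 0 stands for up to 3 counts (Wilson upper limit 43.4%). The WT folds lay between 6.96 and 10.4, with the strongest in an intron (134702667 to 134702853, 17 fragments). Relative to the gene start, 1 peak lay at −24.8 kb and a pair past the gene end at 69.1 and 71.1 kb. Neither Runx3 start had a WT peak, with the nearest 24.7 and 5.56 kb away, and no WT number was skipped around either start. The listed Tet2 KO peaks on either side of the locus were 419 kb apart, with 2 numbers skipped between them.

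Cbfb (chr8:107694574-107741886, plus strand), the shared partner of the 3 Runx proteins, had 6 WT peaks and 0 Tet2 KO peaks, which allows a share of up to 50%. Its start carried a WT peak with a fold of 9.72, 20 fragments, 27 CpG and a GC content of 68.2% (107694306 to 107694582). The strongest peak lay in an intron 16.1 kb from the start, with a fold of 13.6, 28 fragments, 0 CpG and a GC content of 43.2% (107710494 to 107710840), and held a CAGCTG match. Neither the start nor this intron site had a listed Tet2 KO peak, and the part of CpG content in this was not tested. Other WT peaks of the locus lay at the starts of D230025D16Rik (fold 6.45) and of Fbxl8 and Tradd (fold 5.63). The listed Tet2 KO peaks that flank the locus stood 684 kb apart with 3 skipped numbers.

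Nfia (chr4:97439425-97868605, plus strand), best known from glial development, had the fewest WT peaks, 4 over a gene of 429 kb, and 1 Tet2 KO peak. Its upstream start, used by 1 annotated coding transcript, had a WT peak 0.312 kb ahead of it with a fold of 9.78, 21 fragments and 20 CpG, inside the gene E130114P18Rik. The start used by 9 coding transcripts (97444299) had no WT peak within 5.19 kb, and no WT number was skipped in the 22.6 kb between the flanking peaks. The shared intron site had a fold of 11.0 with 19 fragments (interval 11.4 to 29.7) in WT and of 6.29 with 14 fragments (7.65 to 23.5) in Tet2 KO, with the same summit base. The strongest peak lay deep in the gene (97670902 to 97671220, fold 14.1, 28 fragments) and was listed in WT alone.

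Nfib (chr4:81936077-82351654, minus strand), which acts in lung and brain development, had 7 WT peaks and 0 Tet2 KO peaks, which allows a share of up to 42.9% at 3 counts (Wilson upper limit 35.4%). Its WT folds were low, between 5.52 and 9.05, with the strongest in an intron (82336227 to 82336517, 17 fragments) that held a RUNX and a CAGGTG match. The start used by 9 coding transcripts (82151674) was 69.2 kb from the nearest WT peak, and 2 WT numbers were skipped in the 205 kb around it. A WT peak of fold 5.52 lay at the start of the pseudogene Gm11268. Listed Tet2 KO peaks on either side were 1280.2 kb apart, with 3 numbers skipped.

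Nfic (chr10:80858931-80893750, minus strand), known from tooth root formation, is the shortest gene of the 8 (34.8 kb), and its locus had 11 WT peaks, 4 inside the gene, 3 upstream and 4 downstream. Of these, 6 lay at starts of other genes: 1 at Hmg20b, 2 at Fzr1, 1 at Dohh and 2 at Gm16104. The 1 Tet2 KO peak lay at the start of Hmg20b, 80.4 kb from the start of Nfic, with a fold of 4.60 and 18 fragments beside a WT fold of 10.9 and 28 fragments. The strongest distal peak, 1.95 kb upstream of Nfic (80895704 to 80895862), had a fold of 11.1 and 28 fragments in WT and none was listed in Tet2 KO. None of the 3 groups of Nfic starts had a WT peak, and 1 WT number was skipped in the 10.9 kb that hold the 2 upstream groups.

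Nfix (chr8:87223775-87324243, minus strand), the factor of the fetal muscle programme, had 12 WT peaks, of which 7 lay in its introns with folds between 4.17 and 11.1. The strongest of these (87284881 to 87285122) had 24 fragments and 2 CpG. No Tet2 KO peak lay inside the gene. The 1 Tet2 KO peak of the locus lay at −46.7 kb from the gene start, at the start shared by Calr and 1700122E12Rik, where the WT list had its strongest peak of all 8 loci, with a fold of 17.3, 44 fragments (interval 32.0 to 59.1) and 99.8% of the list under it. The Tet2 KO fold there was 5.56 with 17 fragments (9.90 to 27.2), the summits lay 160 bp apart, and the fragment intervals did not overlap. The 3 groups of Nfix starts had no listed WT peak within 12.2 kb, yet 3 WT numbers were skipped in the 54.4 kb that hold them, so called peaks that are not listed may lie there.

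WT peaks stood at an own start of 3 of the 8 genes (Runx1, Cbfb and Nfia), where 30.4% of all protein-coding genes had one. Over the 21 groups of coding starts, 4 had a WT peak and 0 a Tet2 KO peak. Of the other 17 groups, 13 lay between listed WT peaks with skipped numbers and 4 between consecutive ones. Promoters of any gene held 18 of the 70 WT peaks (25.7%, interval 16.9 to 37.0%), beside 27.3% of all WT peaks, and 14 of the 18 belonged to genes other than the members. The nearest transcript start of a protein-coding gene, noncoding isoforms included, was that of the member for 47 of the 70 peaks. Of the 8 Tet2 KO peaks, 6 were distal and 2 lay at starts of other genes. Of 52 distal WT peaks 6 were shared with Tet2 KO (11.5%, interval 5.40 to 23.0%), and of 18 promoter peaks 2 (11.1%, interval 3.10 to 32.8%), beside 10.9% of all distal and 22.5% of all promoter WT peaks.

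The shared sites were among the strong WT peaks. Their WT folds ran from 7.94 to 17.3, and those of the other 62 from 4.06 to 14.2, so the ranges overlapped and 20 WT peaks without a Tet2 KO peak exceeded 7.94. Of the 16 WT peaks with a fold of 10 or more, 7 had a Tet2 KO peak (43.8%, interval 23.1 to 66.8%), where 38.8% of all WT peaks of that strength had one. Of the 54 weaker ones 1 had a Tet2 KO peak (1.85%, interval 0.328 to 9.77%), where 6.39% of all weaker WT peaks had one. At these depths the loci could not be told from the whole list in either class. The 9 strong WT peaks without a Tet2 KO peak were 1 at Runx1, 2 at Runx2, 1 at Runx3, 1 at Cbfb, 1 at Nfia, 2 at Nfic and 1 at Nfix.

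**Figure D3:**
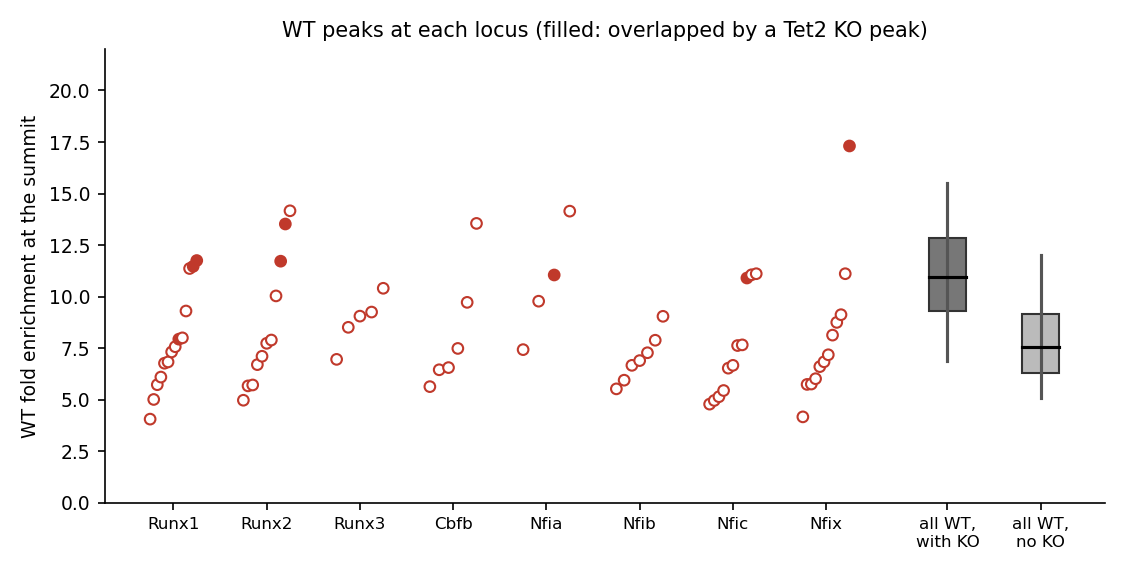
Fold enrichment of each WT peak by locus, in rising order, filled where a Tet2 KO peak overlaps it, with boxes for all WT peaks with and without a Tet2 KO peak (line: median, box: 25th to 75th percentile, whisker: 5th to 95th). Filled points lie from 7.94 to 17.3, and Runx3, Cbfb and Nfib have open points alone.

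In the 8 overlapping pairs the Tet2 KO peak was the lower one in 8 of 8, by the fragments at the summit, by the fold and by −log10 q. The number of Tet2 KO fragments was 0.386 to 0.737 times that of WT, with a median of 0.514. Over all 3722 overlapping pairs the median was 0.552, and 96.2% had fewer fragments in Tet2 KO, so the pairs at the loci went the same way as nearly the whole list. The exact Poisson intervals of the fragments did not overlap in 2 of the 8 pairs (25%), at Runx2 and at the Calr start, and in 11.0% of all pairs. These fragments are raw pileups of 2 libraries whose background differed from site to site. It was higher in WT at the first and second Runx1 intron sites (4.04 against 2.77 and 3.17 against 2.45 fragments). The same held in the middle of Runx2 (1.56 against 1.44). At the other pairs the background was higher in Tet2 KO.

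In base composition the WT peaks at the loci resembled the list, with a median GC content of 55.4% beside 53.2% and a median of 4 CpG in both. No CpG was found in 8 of the 70 (11.4%), beside 9.51% of all WT peaks. The 8 shared WT peaks were wider, with a median of 296 bp against 188 bp for the other 62, as were shared peaks over the whole list with 337 against 198 bp. All 8 shared peaks held a CpG, while 12.9% of the other 62 had none. Over the whole list 2.31% of shared and 10.7% of other WT peaks had none, so nearly all shared peaks held one. The median CpG count was 5 in the 8 shared peaks and 4 in the other 62, beside 9 and 3 over the whole list. Per 100 bp the medians were 1.71 and 2.12 at the loci, and 2.71 and 1.62 over the whole list.

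Relative to their windows the loci spread over the range of protein-coding genes. Nfic had 8.16 WT peaks per 100 kb and Nfix 5.99, and 245 and 1098 genes were denser. Runx1 followed with 4.31, Cbfb with 4.07, Runx3 with 3.18 and Runx2 with 2.63. Nfib with 1.36 and Nfia with 0.756 lay under the median of all genes, which was 1.60, but with the gene bodies alone they lay above it, at percentiles of 66.1 and 62.4 in place of 46.1 and 31.6, and Nfib also did with 10 kb on either side (51.4). The median of the 8 was 3.63 per 100 kb, and their median percentile among the 22208 genes was 80.9. Windows of neighbouring genes overlap, so genes are not independent in this ranking.

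**Figure D4:**
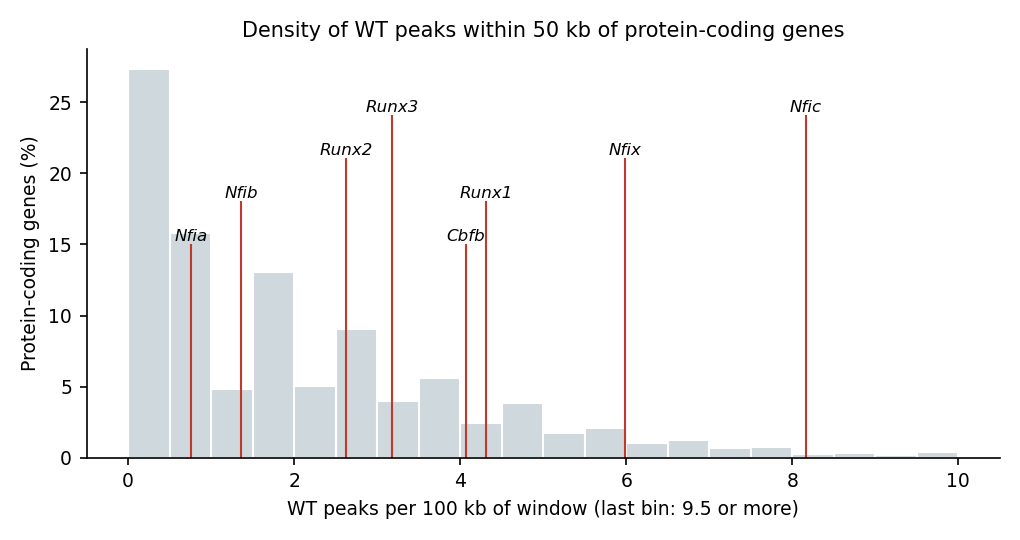
Distribution of WT peaks per 100 kb of window (gene with 50 kb on either side) over all protein-coding genes, in percent of genes, with the 8 members as red lines whose heights carry no value. The members run from 0.756 at Nfia to 8.16 at Nfic, and in these windows 6 of them lie above the median of 1.60, while with gene bodies alone Nfia and Nfib did too.

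Motifs were searched over the whole length of the distal WT peaks. A RUNX match was found in 17 of 52 (32.7%, interval 21.5 to 46.2%), beside 36.4% of all 18729 distal WT peaks. A single NFI arm was found in 6 of 52 (11.5%, interval 5.40 to 23.0%), beside 16.6%, and the full NFI palindrome in 0 of 52, beside 0.0641%. CAGCTG was the most frequent motif with 23 of 52 (44.2%, interval 31.6 to 57.7%), beside 42.9%, and AP-1 came next with 21 of 52 (40.4%, interval 28.2 to 53.9%), beside 40.3%. CAGGTG was found in 3 of 52 (5.77%, interval 1.98 to 15.6%), beside 12.9%, and TEAD in 8 of 52 (15.4%, interval 8.01 to 27.5%), beside 22.2%. Over whole peaks the share of all distal peaks lay inside the interval at the loci for each of these motifs, so no difference was detectable with 52 peaks. In the 100 bp of sequence at the summit, however, RUNX matches were found in 5 of 52 (9.62%, interval 4.18 to 20.6%), beside 20.9% of all distal WT peaks in the same stretch, which lay just outside that interval. For the other 6 motifs the share of all distal peaks in that stretch lay inside the interval at the loci, with the single NFI arm at 9.62% beside 7.94%. The intervals were not adjusted for the number of motifs and stretches checked.

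**Figure D5:**
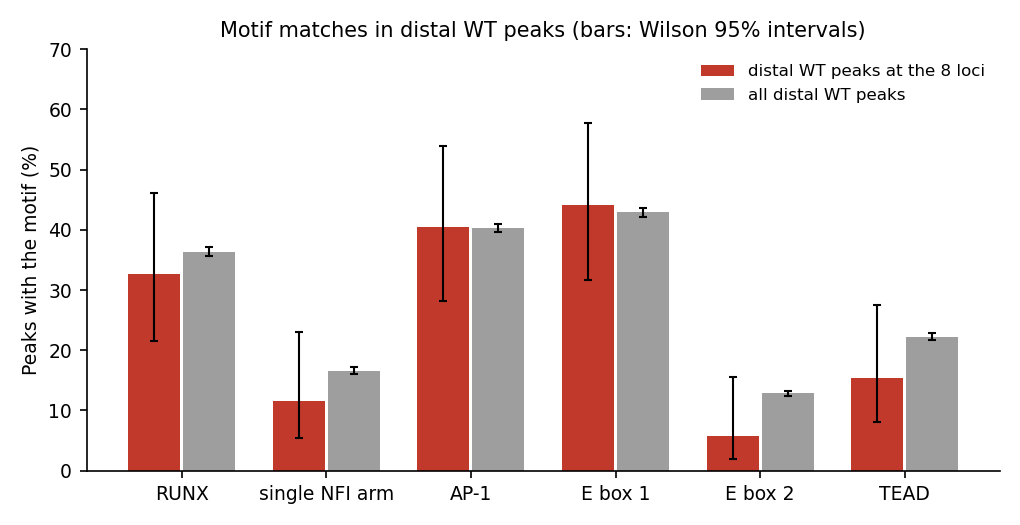
Share of distal WT peaks with each motif, in percent, at the 8 loci (red, 52 peaks) and over the whole list (grey, 18729 peaks), with Wilson 95% intervals. E box 1 is CAGCTG and E box 2 is CAGGTG. The intervals at the loci are wide and hold the share of the whole list for the 6 motifs drawn.

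The 6 distal shared sites printed above held CAGCTG in 4, AP-1 in 3, RUNX in 2, and a single NFI arm and CAGGTG in 1 each. None of them held a TEAD match. Over all 2047 distal WT peaks with a Tet2 KO peak the shares were 55.3% for CAGCTG, 49.6% for AP-1, 46.2% for RUNX, 23.3% for the single NFI arm, 17.3% for CAGGTG and 32.3% for TEAD. With 6 sites the Wilson intervals were wide, from 18.8 to 81.2% for AP-1 and from 3.01 to 56.4% for the single NFI arm.

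Genes that work with these factors were read from short lists. All 16 genes of Runx cofactors (corepressors, acetyltransferases and other partners) had a WT peak within 50 kb. In that span at most 27.4% of all protein-coding genes had none, so most genes had a WT peak too. A Tet2 KO peak lay within 50 kb of 10 of the 16 (62.5%), beside 31.4% of all protein-coding genes. The median was 4.5 WT peaks within 50 kb for the cofactors and 2 over all genes. Between 10 kb upstream and the gene end 9 of the 16 had a Tet2 KO peak, beside 13.5% of all genes. The 10 were Tle1, Tle2, Tle4, Aes, Cbfa2t2, Cbfa2t3, Kat6a, Kat6b, Sin3a and Prmt1, with 4 Tet2 KO peaks each at Cbfa2t2 and Prmt1. Of the 71 WT peaks at the cofactor genes 15 had a Tet2 KO peak (21.1%, interval 13.2 to 32.0%), beside 14.1% of all WT peaks and 11.4% at the Runx and Nfi loci. These shares are descriptions, since neighbouring genes in the windows contribute peaks and the lists were chosen with earlier results of these data known. The part of gene length and of the number of WT peaks in the Tet2 KO counts was not tested.

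Of 12 genes around Nfix in muscle, 11 had a WT peak within 50 kb and 3 a Tet2 KO peak (25%), namely Junb, Myh7 and Eno3, beside 31.4% of all genes. In the span between 10 kb upstream and the gene end 0 of the 12 had a Tet2 KO peak, beside 13.5% of all genes. Among them Sox6, a repressor of slow fibre genes, had 3 WT peaks and Nfatc1, a calcineurin-dependent factor, had 6, both with 0 in Tet2 KO, and Mstn, the growth inhibitor myostatin, had 0 in both lists. Of the 49 WT peaks at these genes 3 had a Tet2 KO peak (6.12%, interval 2.10 to 16.5%), beside 14.1% of all WT peaks. Of 10 targets of Runx factors in blood and bone, all had a WT peak within 50 kb and 4 a Tet2 KO peak (40%), namely Spi1, Itgal, Sp7 and Col10a1, beside 31.4% of all genes. Between 10 kb upstream and the gene end, however, 3 of the 10 had a WT peak and 0 a Tet2 KO peak, beside 13.5% of all genes with a Tet2 KO peak. The counts within 50 kb thus came largely from the flanks of these genes. Beside the WT counts of these lists, at most 27.4% of all protein-coding genes had no WT peak within 50 kb. The exact share was not counted in either span.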

How the data were processed

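ATAC-seq libraries of 2 WT and 2 Tet2 KO myoblast samples (male mice, per the study's methods) were made by the authors. They cut paired reads of 150 bp to 36 bp, mapped these on mm9 (Bowtie2), and dropped duplicates and mapping qualities under 30. Their methods state that MACS2 was run on each sample at a q of 0.01. Versions are not given in the sources used here. Trimming and the quality limit lower the coverage of repeats.

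The authors deposited 1 peak list per genotype. The deposited fold is a ratio of the summit pileup to the local background with a pseudocount of 1, and the deposited −log10 p and −log10 q belong to the summit. The deposited score is 10 times −log10 q in WT and 10 times −log10 p in Tet2 KO, and was not used further. The smallest −log10 q was 2.18 in WT and 0.863 in Tet2 KO, so the lists follow different limits. The Tet2 KO list thus holds peaks that do not pass the stated q of 0.01, and its limit was the looser one. Its smallest −log10 p was 4.01. How the listed peaks were taken from the called ones is not given in the sources used here. Lists were matched to genotypes by their names and totals.

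Fragments at each summit were solved from the fold and −log10 p, which MACS2 takes from a Poisson distribution (error at most 0.0002), which gives the depth per site. Total reads are unknown. Overlap meant at least 1 bp, and a promoter reached from 1000 bp upstream to 100 bp downstream of a transcript start, at the peak centre. Coding starts of a gene within 500 bp formed a group. Sequence came from NCBIM37 (mm9). Shares have Wilson 95% intervals, and a count of 0 allows 3 counts. Named were the 8 members, list genes with a Tet2 KO peak, and genes whose promoter holds a peak inside a window. Named outside this rule, after their values were seen, were Tet2, Sox6, Nfatc1, Mstn, marker genes without a Tet2 KO peak, and Clic6, Dand5, Celf5, E130114P18Rik and G430095P16Rik, which hold a peak or have the nearest start. The members and lists were chosen with earlier results of these data known. A marker gene and a neighbouring gene are not reported here. Calculations were tested on simulated data. Alternatives were stricter limits, other windows, overlaps and promoters, merged peaks, summit-centred motifs and each locus left out. The software was Python 3.11.15 with pandas 2.3.3, numpy 2.4.6, matplotlib 3.10.9 and scipy 1.17.1.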

Additional observations from a re-analysis of the deposited data

How the results depend on the processing

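No paired analysis was possible because the list of a genotype comes from 1 library without a replicate number, and for the same reason no replicate could be left out. Where both lists were limited to a −log10 q of 10 or more, 35 WT and 1 Tet2 KO peak remained at the 8 loci, a ratio of 35.0, and 2.86% of the WT peaks had a Tet2 KO peak. At that limit the whole lists kept 14060 WT and 508 Tet2 KO peaks, a ratio of 27.7, with 3.41% of the WT peaks shared. The Tet2 KO count was 5 with 10 kb on either side, 5 in the gene bodies alone, 4 where the nearest gene start had to be that of the member, and 5 without the Runx1 locus. The promoter share was 38.6% with promoters of 3000 bp on either side. No share of all WT peaks is given for these wider promoters, so this value cannot be set against the 27.3% of the narrower ones. In the 100 bp at the summit the RUNX share of distal peaks was 9.62% and the CAGCTG share 30.8%, beside 20.9% and 26.5% of all distal WT peaks in the same 100 bp. The whole-list value lay just outside the Wilson interval at the loci for RUNX (4.18 to 20.6%) and inside it for CAGCTG (19.9 to 44.3%). RUNX at the summit was the only motif check outside its interval, and the intervals were not adjusted for the number of checks. The density percentile of Nfia was 62.4 and that of Nfib 66.1 with gene bodies alone, above the median of all genes, in place of 31.6 and 46.1. The ratio of WT to Tet2 KO peaks stayed between 7.88 and 11.8 under all other settings tried. Of 160 counts at single loci under an alternative, 36 moved by more than 1.5 times (32 lower, 4 higher), and no setting gave a locus more Tet2 KO than WT peaks. The limits are a single list per genotype, lists that leave out called peaks and backgrounds that differ between the libraries and from site to site. A further limit is few fragments per summit (8 to 48 in WT and 13 to 26 in Tet2 KO at the loci).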

Other observations

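Peaks inside the windows that belonged to neighbours of Nfix and Nfic make up much of these loci. Upstream of Nfix, a WT peak lay in an exon of Dand5, an inhibitor of Nodal signalling (fold 6.60). Past the end of Nfix, WT peaks lay at the starts of Trmt1 (fold 5.76) and Gm2529 (fold 8.13). Of the 7 peaks in Nfix introns, 4 had G430095P16Rik as the gene with the nearest start. Upstream of Nfic, 2 WT peaks had Celf5, an RNA-binding protein gene, as the nearest (folds 6.67 and 4.78). None of these had a listed Tet2 KO peak.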
